A study of Mus musculus with 9 samples.

Results

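Immediate early genes and heat shock genes were followed in 3 dendritic cell subsets sorted from mouse spleen. The 36 members, 28 immediate early genes and 8 heat shock genes, were taken by symbol from the 14862 genes of the expression table. All 36 were found there, and all 36 passed a filter of more than 1 RPKM (reads per M, divided by gene length in kilobases) in at least 2 libraries, which 11971 genes passed in all. The subsets were labelled mcDC, cDC1 and cDC2, with 3 libraries each, from C57Bl/6 mice aged 8 to 12 weeks with no treatment or engineered allele given in the labels. cDC1 and cDC2 are the type 1 and type 2 conventional dendritic cells, of which cDC1 are known for cross-presentation to CD8 T cells and cDC2 mainly present antigen to CD4 T cells. The labels leave mcDC unexpanded, an abbreviation used elsewhere for merocytic dendritic cells. The sort markers, the number of animals behind a library and any pooling are not named in the sources used here. The spread behind each p-value is therefore drawn from libraries and may be technical.

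The library titles run in consecutive numbers, and each run of 3 holds 1 library of every subset. These are called title runs 1, 2 and 3, and they are also the replicate numbers. What the libraries of a run have in common is not stated in the labels. Libraries held 5.14 to 8.22 M reads in mcDC, 9.68 to 11.0 M in cDC1 and 9.19 to 12.4 M in cDC2. mcDC run 3 was the shallowest and had 12.35% of genes at 0, against 2.71% to 6.47% in the other 8 libraries. The subset labels were checked against marker genes. Cd8a, the CD8 alpha chain of splenic cDC1, was at 3.72 to 9.68 RPKM in mcDC, 306 to 346 in cDC1 and 1.22 to 1.41 in cDC2. Summed over 8 cDC1 markers, Cd8a included, the level was 433 to 880 RPKM in mcDC, 1681 to 2042 in cDC1 and 204 to 253 in cDC2. Of these 8 markers, 6 were lower in mcDC than in cDC1 and 6 were higher in mcDC than in cDC2. Summed over 8 cDC2 markers, the level was 345 to 603 RPKM in mcDC, 38.5 to 123 in cDC1 and 651 to 740 in cDC2. Of these 8 cDC2 markers, 7 were higher in mcDC than in cDC1, and 1 was lower in mcDC than in cDC2. No marker list defines mcDC here.

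Immediate early genes are transcribed within minutes of a stimulus, without new protein synthesis, through transcription factors already bound or activated by kinases, such as SRF and CREB. Many encode transcription factors (the AP-1, EGR and NR4A families), and others encode feedback inhibitors of the same signals, such as phosphatases, RNA decay factors and NF-kB inhibitors. Heat shock genes encode chaperones that refold or hold damaged proteins, and the inducible ones are switched on by HSF1.

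The upstream sequences are shown for members that differed between the title runs and for members with a motif of either pathway near the start. They come from RefSeq on GRCm38.p6, where 28 of the 36 members had an entry. Hspa1a (chr17:34972157-34972406, minus strand) and Hspa1b (chr17:34959239-34959488, minus strand) encode the inducible HSP70 and are near-identical neighbours. Capitals mark GAANNTTC, the head-to-head heat shock element, in the 250 bases before the start.
Hspa1a: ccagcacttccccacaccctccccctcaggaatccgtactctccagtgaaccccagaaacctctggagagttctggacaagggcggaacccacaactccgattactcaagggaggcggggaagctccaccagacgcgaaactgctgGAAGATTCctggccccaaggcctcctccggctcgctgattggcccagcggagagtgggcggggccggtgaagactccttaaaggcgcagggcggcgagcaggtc
Hspa1b: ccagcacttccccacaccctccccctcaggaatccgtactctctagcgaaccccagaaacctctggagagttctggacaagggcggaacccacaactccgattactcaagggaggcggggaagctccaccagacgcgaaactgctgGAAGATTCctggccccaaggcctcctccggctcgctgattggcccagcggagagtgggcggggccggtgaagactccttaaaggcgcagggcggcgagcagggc
The motif lay from -104 to -97 in both. Counted back from the start, the sequences differed by C207T, T204C and T2G (Hspa1a base first), and 98.8% of the 250 bases were identical. Reads from the near-identical pair could have been split between the copies, so their separate levels are uncertain.

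Hspe1 (chr1:55087998-55088147, plus strand) encodes the mitochondrial co-chaperonin HSP10. In the 150 bases before its start, capitals mark overlapping heat shock elements of both forms, GAANNTTC and TTCNNGAA.
Hspe1: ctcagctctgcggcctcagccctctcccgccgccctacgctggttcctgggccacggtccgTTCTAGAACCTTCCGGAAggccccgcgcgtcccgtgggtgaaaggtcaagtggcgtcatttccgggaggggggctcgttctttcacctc
On either strand GAANNTTC was present in 4 of the 6 heat shock members with an entry (Dnaja1, Hspa1a, Hspa1b and Hspe1), in 1 of 22 immediate early members (Jun) and in 6.69% of all 32851 promoters of the same 250 bases. TTCNNGAA was present in 2 of 6 (Hspe1 and Hsph1), 1 of 22 (Egr2) and 7.17% of all promoters.

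Among immediate early members the cAMP response element core TGACG was the commonest of the motifs searched. Fos (chr12:85473740-85473889, plus strand), the prototype AP-1 gene, is shown with TGACG in capitals. Zfp36 (chr7:28379229-28379378, minus strand), which encodes the RNA decay factor tristetraprolin, is shown with its CArG box, the SRF motif, in capitals. Dusp1 (chr17:26508473-26508622, minus strand), a MAP kinase phosphatase, is shown with the full element TGACGTCA in capitals. Each sequence is the 150 bases before the start.
Fos: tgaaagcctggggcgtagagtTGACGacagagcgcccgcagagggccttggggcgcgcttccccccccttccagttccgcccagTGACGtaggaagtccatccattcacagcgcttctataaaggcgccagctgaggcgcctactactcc
Zfp36: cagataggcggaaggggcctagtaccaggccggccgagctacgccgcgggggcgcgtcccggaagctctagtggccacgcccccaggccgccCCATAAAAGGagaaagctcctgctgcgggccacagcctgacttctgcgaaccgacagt
Dusp1: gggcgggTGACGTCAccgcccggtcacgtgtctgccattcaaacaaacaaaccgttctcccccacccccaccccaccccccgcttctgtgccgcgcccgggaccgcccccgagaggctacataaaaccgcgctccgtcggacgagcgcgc
TGACG, which is also part of TGACGTCA, was found on either strand in 12 of 22 immediate early members, 2 of 6 heat shock members and 17.8% of all promoters. TGACGTCA was found in 3 of 22 (Btg2, Dusp1 and Ppp1r15a), 0 of 6 and 1.55%, and the CArG box in 2 of 22 (Egr2 and Zfp36), 0 of 6 and 1.47%. For every motif, a member was counted when any of its entries held it, while the share of all promoters counts single entries. These are unlike units, and a member with several entries, such as Egr2, had more openings for a match. A match describes the letters of this window and is not evidence of binding.

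Variance here is the sum of squares of log2(RPKM + 1) over the 9 libraries. Title run took a larger share of it than subset at 25 of the 36 members, against 37.6% of all genes tested. The median shares were 59.2% for run and 26.7% for subset over the 36 members. Over the heat shock members alone they were nearly equal, at 38.4% and 38.3%. Most immediate early genes were highest in run 1 of all 3 subsets, and most heat shock genes were lowest there. Of the 28 immediate early members, 23 had their highest level in run 1 within every subset, and of the 8 heat shock members 6 had their lowest. Run 1 thus lay outside the range of runs 2 and 3 in every subset at 29 of 36 members, against 25.0% of all genes tested (1555 genes highest and 1442 lowest). Summed over the 28 members, immediate early RNA was at 8156, 3984 and 4028 RPKM in mcDC runs 1, 2 and 3. The sums were 5183, 3521 and 3605 RPKM in cDC1, and 7434, 4194 and 4449 RPKM in cDC2. As a share of all RPKM in a library, these genes made up 2.04%, 0.915% and 0.789% in mcDC, 1.19%, 0.799% and 0.753% in cDC1, and 1.75%, 0.960% and 0.943% in cDC2. Run 1 held the largest share in each subset, and mcDC run 1 the largest of the 9. Heat shock members summed to 1661, 2036 and 2241 RPKM in mcDC, 1916, 2078 and 2231 in cDC1, and 1652, 1934 and 2107 in cDC2, with run 1 lowest each time.

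**Figure D1:**
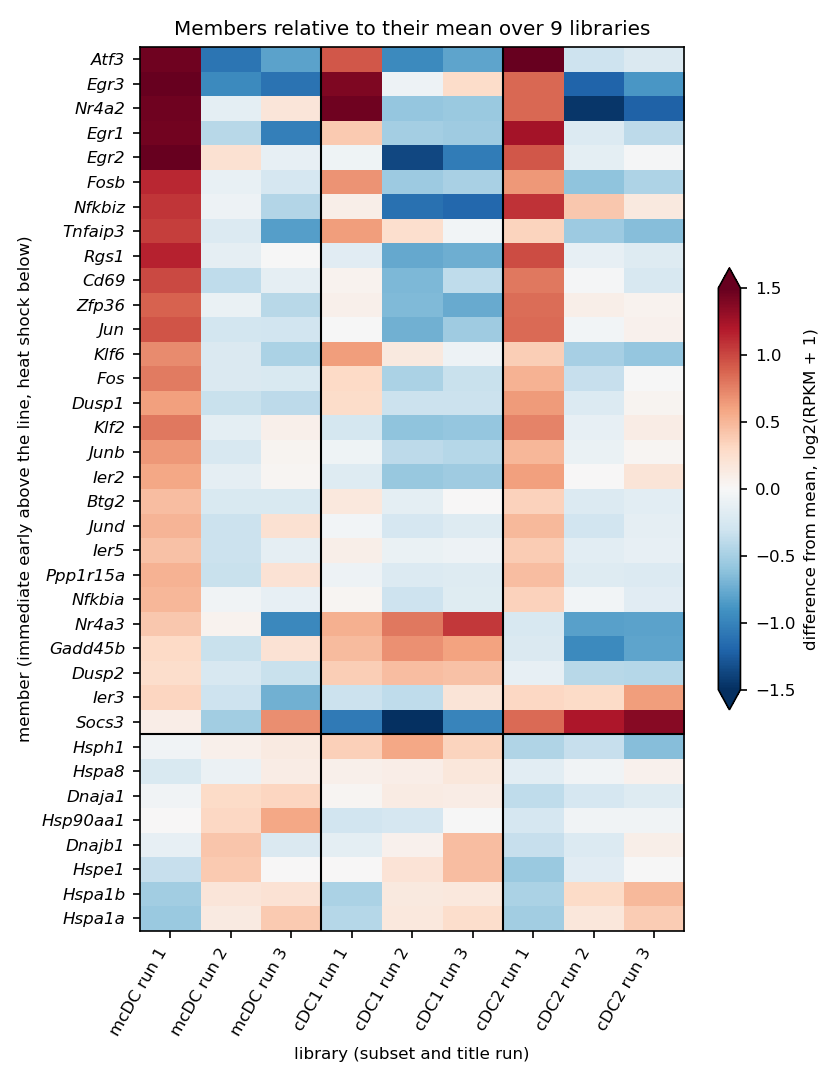
Difference of each of the 36 members from its own mean over the 9 libraries, in log2(RPKM + 1), with 1 column per library and genes ordered by how much run 1 exceeded runs 2 and 3. Colours stop at 1.5 in either direction. The run 1 columns of mcDC, cDC1 and cDC2 are red for most immediate early members and blue for Hspa1a and Hspa1b at the foot.

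A moderated F test over the 3 title runs, in a limma fit with subset as the other factor, called 11 of the 36 members at an adjusted p of 0.05. Each run holds 1 library of a subset, so this fit has no replicate libraries within a run and subset. Its spread is how far run differences varied between subsets, on 4 residual degrees of freedom. The p-values therefore concern these 3 runs and do not measure how runs vary in general. The same test called 32 of the 11971 genes (0.267%), so 11 of the 32 were members. Of the called members 9 are immediate early genes with higher levels in run 1 (Atf3, Fosb, Nr4a2, Nfkbiz, Klf6, Zfp36, Egr2, Egr3 and Fos). The other 2, Hspa1a and Hspa1b, were lower in run 1. They are the near-identical pair whose reads could have been split, so they may not be separate results. Ranked by p, Atf3 and Fosb were the 1st and 2nd of all genes, and 15 members stood among the first 50 genes. The members were chosen with earlier results of these data known, so this standing may be partly built in. The number called depended on single libraries, and the number over all genes moved with it. It was 2 without mcDC replicate 2, cDC1 replicate 2, cDC1 replicate 3, cDC2 replicate 2 or cDC2 replicate 3, against 0.0168% to 0.0422% of all genes tested in those fits. It was 3 without mcDC replicate 1 (0.0422% of all genes) or cDC2 replicate 1 (0.101%). It was 2 with no filter on low values (0.0336% of all genes), 1 with no trend in the prior variance (0.00835%) and 15 with voom, the read-count form of limma, on recovered reads (0.785%). Atf3 was called in each of these fits, and Fosb in each except the fit with no trend.

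The pairwise differences placed the contrast between run 1 and the other runs. Run 2 differed from run 1 at 9 members, 2 higher and 7 lower in run 2, against 0.150% of all genes (0.0585% higher and 0.0919% lower). Of these, Fos, Egr2, Egr3, Nfkbiz, Hspa1a and Hspa1b lay at the threshold, with a limma adjusted p that rounded to 0.05. Run 3 differed from run 1 at 19 members, 2 higher and 17 lower in run 3, against 4.97% of all genes (2.87% higher and 2.10% lower). Between run 3 and run 2 limma called 0 members (0.00% of all genes, and 1 member at an unadjusted p under 0.05, against 11.9% of all genes). The median difference between run 2 and run 1 was -0.78 (log2) over the immediate early members, 0.24 over the heat shock members and 0.00 over all genes tested. Between run 3 and run 1 these medians were -0.72, 0.34 and -0.04. Under quantile normalization and median-of-ratios scaling the immediate early median stayed between -0.84 and -0.79 for run 2, and between -0.85 and -0.70 for run 3.

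**Figure D2:**
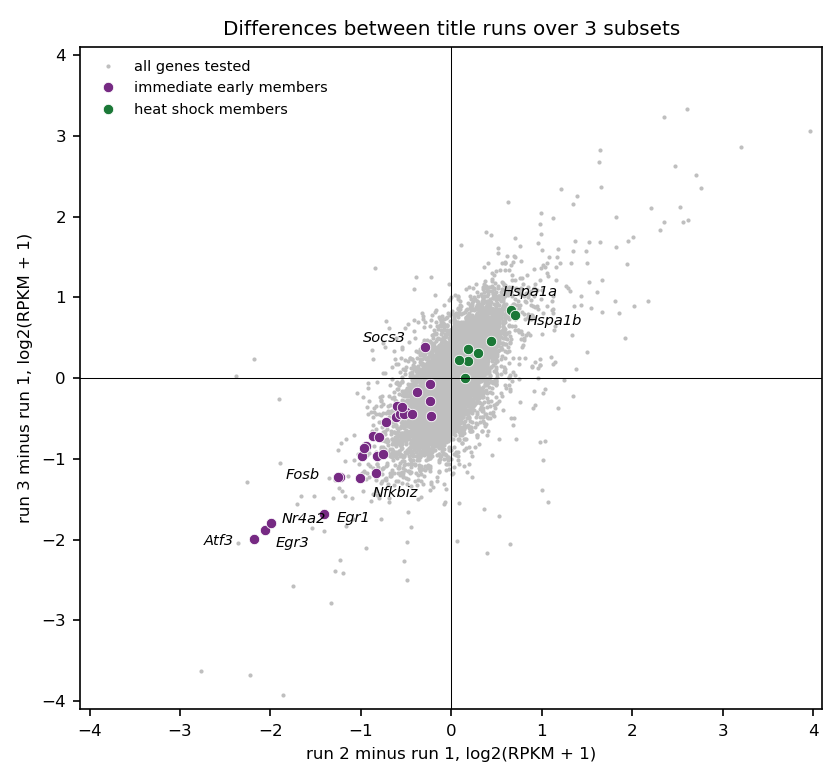
Differences in log2(RPKM + 1) between title runs, averaged over the 3 subsets, for run 2 minus run 1 (horizontal) and run 3 minus run 1 (vertical). Both axes share run 1. Grey points are the 11971 genes tested, purple points the 28 immediate early members and green points the 8 heat shock members. Atf3 lies at -2.18 and -1.99, and Hspa1a at 0.66 and 0.84.

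Other transcripts moved with the title runs too. The erythroid and platelet list, of which 10 of 12 names were matched, summed to 3.80, 85.5 and 42.1 RPKM in mcDC runs 1, 2 and 3, to 4.15, 110 and 89.3 in cDC1, and to 3.24, 14.6 and 10.7 in cDC2. Run 1 was therefore lowest in each subset. Neutrophil markers (11 of 11 matched) summed to 40.9 to 51.2 RPKM in mcDC, to 15.0 to 42.2 in cDC1, and to 197, 1015 and 1704 in cDC2 runs 1, 2 and 3. The cDC2 markers summed to 123 RPKM in cDC1 run 1, against 38.5 and 42.1 in cDC1 runs 2 and 3. The cDC1 markers summed to 433, 704 and 880 RPKM in mcDC runs 1, 2 and 3. In the same libraries the cDC2 markers summed to 603, 410 and 345 RPKM and the macrophage markers to 442, 544 and 850 RPKM. The part of these differences in the results was not tested, and in bulk RNA fewer cells of a type and less RNA per cell cannot be told apart.

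AP-1 dimers are built from FOS, JUN and ATF proteins. Fos was at 1053, 530 and 526 RPKM in mcDC runs 1, 2 and 3, at 755, 443 and 488 in cDC1, and at 880, 484 and 610 in cDC2. It was among the 8 most abundant members, and run 1 was the highest library of each subset (run 1 over run 2, 1.83-fold, F test adjusted p = 0.044). Fosb was at 238, 100 and 90.5 RPKM in mcDC, at 173, 74.1 and 77.1 in cDC1, and at 170, 71.0 and 78.2 in cDC2. The levels in runs 2 and 3 of each subset lay below every run 1 level, with a difference of -1.23 ± 0.09 between run 2 and run 1 (log2, SE, limma adjusted p = 0.0049). Atf3, a stress-induced repressor, was at 179, 29.7 and 36.7 RPKM in mcDC, at 124, 32.8 and 36.8 in cDC1, and at 224, 51.8 and 55.3 in cDC2. Its run 1 level was 4.52-fold that of run 2 and 3.98-fold that of run 3, the widest ratios of the 36 members.

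Jun, Junb and Jund also had run 1 highest in every subset, with smaller differences. Jun was at 701, 302 and 300 RPKM in mcDC, at 363, 221 and 252 in cDC1, and at 656, 355 and 382 in cDC2. Its F test missed the threshold (adjusted p = 0.052), while run 3 differed from run 1 (-0.84 log2, adjusted p = 0.028). Junb was at 618, 334 and 406 RPKM in mcDC, at 377, 299 and 293 in cDC1, and at 558, 366 and 400 in cDC2 (F test adjusted p = 0.093). Jund, the least inducible JUN gene, lay between 129 and 230 RPKM over the 9 libraries (adjusted p = 0.13).

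Egr1, Egr2 and Egr3 bind GC-rich promoter elements and relay growth factor and antigen receptor signals. Over the 9 libraries Egr1 lay between 84.6 and 475 RPKM, Egr2 between 7.98 and 69.3, and Egr3 between 5.85 and 49.4. In every subset run 1 was the highest library for all 3 genes. Egr2 and Egr3 passed the F test (adjusted p = 0.042 and 0.043) and Egr1 did not (adjusted p = 0.061), although its run 1 level was 2.65-fold that of run 2 and 3.19-fold that of run 3. Klf6, a factor induced by injury, was at 178, 92.9 and 78.0 RPKM in mcDC, at 168, 120 and 103 in cDC1, and at 141, 76.4 and 72.2 in cDC2 (F test adjusted p = 0.042). Klf2, a factor of quiescence and trafficking in lymphocytes, lay between 80.2 and 212 RPKM and missed the threshold (adjusted p = 0.089).

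The orphan nuclear receptors Nr4a2 and Nr4a3 act without a known ligand, and they differed in their pattern over runs. Nr4a2 was at 16.7, 4.83 and 6.32 RPKM in mcDC, at 16.7, 3.31 and 3.39 in cDC1, and at 10.7, 1.35 and 1.78 in cDC2. Its run 1 level was 3.96-fold that of run 2 (adjusted p of the difference 0.023), and the lowest library held 52 reads of it. Nr4a3 was at 8.85, 6.72 and 2.82 RPKM in mcDC, at 9.80, 11.9 and 14.6 in cDC1, and at 5.33, 3.24 and 3.27 in cDC2. In mcDC and cDC2 run 1 was highest, and in cDC1 it was lowest, so the F test over runs gave an adjusted p of 0.59.

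**Figure D3:**
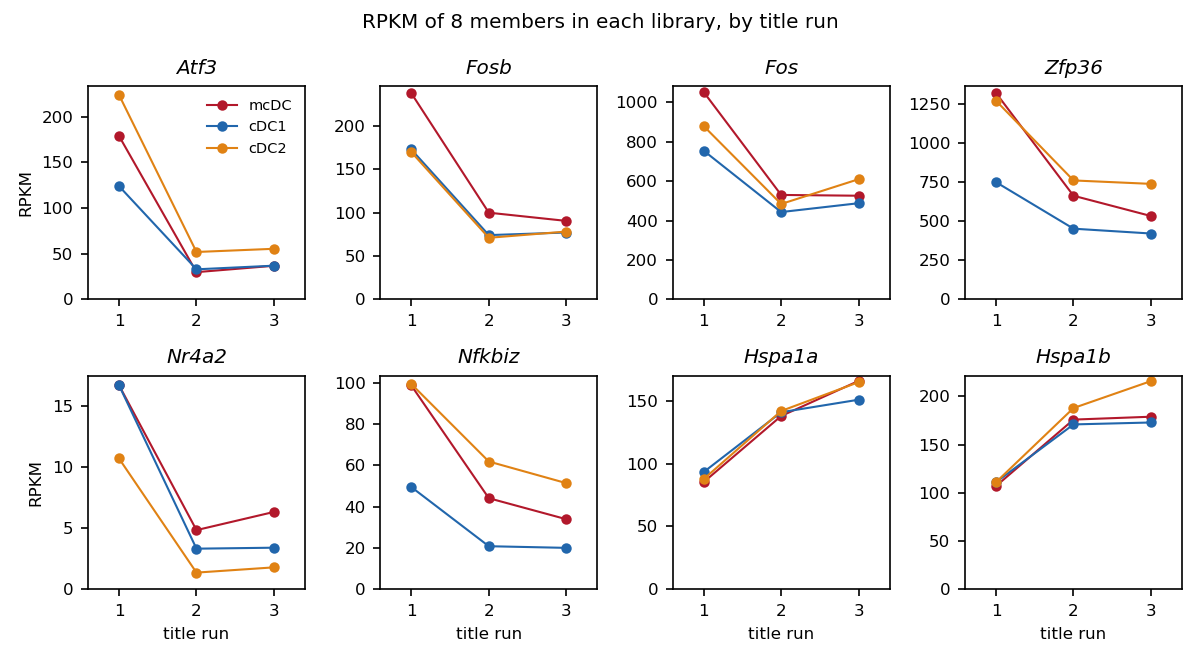
RPKM of 8 members in each library by title run, on linear axes from 0, with red for mcDC, blue for cDC1 and orange for cDC2. Lines join the libraries of a subset for the eye alone. Run 1 is the highest library of each subset for the 6 immediate early genes and the lowest for Hspa1a and Hspa1b.

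Genes that damp signalling and shorten RNA life were among the most abundant members. Zfp36 was at 1321, 663 and 533 RPKM in mcDC runs 1, 2 and 3, at 750, 452 and 421 in cDC1, and at 1271, 761 and 739 in cDC2, with run 1 highest throughout (F test adjusted p = 0.042). Dusp1 was at 480, 249 and 239 RPKM in mcDC, at 381, 250 and 251 in cDC1, and at 489, 272 and 324 in cDC2 (adjusted p = 0.052). Btg2, an antiproliferative factor that promotes RNA deadenylation, lay between 177 and 288 RPKM (adjusted p = 0.11). Ppp1r15a, the GADD34 subunit that reverses the eIF2 alpha stress block, lay between 82.3 and 149 RPKM (adjusted p = 0.18).

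Nuclear and cytoplasmic regulators of NF-kB also had run 1 highest. Nfkbiz, which encodes the nuclear regulator I-kappa-B zeta, was at 98.8, 44.1 and 33.9 RPKM in mcDC, at 49.5, 20.8 and 20 in cDC1, and at 99.5, 61.9 and 51.4 in cDC2. Run 1 was highest in each subset (run 3 minus run 1, -1.24 log2, adjusted p = 0.013). Nfkbia, the classical inhibitor I-kappa-B alpha, lay between 139 and 245 RPKM, and Tnfaip3, the ubiquitin-editing enzyme A20, between 22.0 and 82.6 RPKM. Neither passed the F test (adjusted p = 0.11 and 0.091), and both had run 1 highest in every subset.

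Rgs1, which blunts chemokine receptor signalling, was at 662, 271 and 297 RPKM in mcDC, at 264, 175 and 178 in cDC1, and at 585, 274 and 259 in cDC2. Run 1 was highest in each subset (F test adjusted p = 0.052). Cd69, an activation antigen that retains cells in tissue, was the least abundant member, between 1.90 and 8.24 RPKM, and the smallest count behind a member was its 23 reads in mcDC run 2. The IER genes encode small regulators induced by serum. Ier5 was at 307, 181 and 206 RPKM in mcDC, at 240, 211 and 214 in cDC1, and at 295, 203 and 207 in cDC2 (F test adjusted p = 0.12). Ier2 lay between 104 and 237 RPKM with run 1 highest in every subset (adjusted p = 0.082), and Ier3 between 18.9 and 49.4 RPKM with run 1 highest in mcDC only (adjusted p = 0.79).

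Of the heat shock members, Hspa1a and Hspa1b passed the F test. Hspa1a was at 85.3, 138 and 166 RPKM in mcDC, at 93.3, 141 and 151 in cDC1, and at 87.7, 142 and 165 in cDC2. The 3 run 1 libraries lay below the other 6, and the subsets nearly coincided within a run. The difference was 0.66 ± 0.09 between run 2 and run 1 and 0.84 between run 3 and run 1 (log2, F test adjusted p = 0.028). Hspa1b was at 107, 176 and 179 RPKM in mcDC, at 111, 171 and 173 in cDC1, and at 111, 188 and 216 in cDC2 (F test adjusted p = 0.032). The constitutive HSC70 gene Hspa8, the most abundant member, was at 1078, 1189 and 1365 RPKM in mcDC, at 1326, 1344 and 1416 in cDC1, and at 1126, 1218 and 1319 in cDC2. Run 1 was lowest in every subset for Hspa8, and the F test did not call it (adjusted p = 0.35).

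No other heat shock member passed the F test. Hsp90aa1, the inducible HSP90, lay between 169 and 309 RPKM (F test adjusted p = 0.18). Hspe1 lay between 81.8 and 167 RPKM (adjusted p = 0.15). The HSP40 co-chaperone genes Dnaja1 and Dnajb1 lay between 30.2 and 49.7 and between 32.9 and 58.5 RPKM (adjusted p = 0.33 and 0.45). Variance was split as the share of the sum of squares of log2(RPKM + 1) over the 9 libraries. Over the 8 heat shock members the median share of variance was 38.4% for title run and 38.3% for subset. Over the 28 immediate early members these medians were 63.3% and 20.8%, and over all genes tested 22.6% and 42.1%. Hspa1a and Fosb stood at the run end, with 98.3% and 90.3% of their variance between runs. Hsph1 and Socs3 stood at the subset end, with 92.6% and 88.2% between subsets.

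Differences between subsets were few in the fit without the title run. That fit left run differences in the spread, while the test over runs took subset differences out, so their counts cannot be compared. mcDC differed from cDC1 at 1 of 36 members, which was higher in mcDC, against 15.4% of all genes tested (9.53% higher and 5.88% lower). mcDC differed from cDC2 at 0 of 36 in limma (6 at an unadjusted p under 0.05, the same share as the 16.7% of all genes, and 0 with voom on recovered reads), against 3.66% of all genes (2.06% higher and 1.60% lower). cDC1 differed from cDC2 at 5 of 36, 4 higher and 1 lower, against 19.6% of all genes (8.85% higher and 10.7% lower). The libraries of a run did not meet the criterion set for pairing, so the fit without the run is the one reported, and values adjusted for the run are given beside it because the members differed between runs. When the title run entered as a replicate block, the counts were 12 (20.7% of all genes), 6 (6.46%) and 19 (24.6%) in the same order of comparisons. Of all called genes, 61.8% were higher in mcDC than in cDC1 as deposited, 48.5% after quantile normalization and 46.5% with median-of-ratios scaling. For mcDC against cDC2 these shares were 56.4%, 48.6% and 42.8%. For mcDC against cDC1 the median over all genes tested was 0.09 (log2) as deposited and -0.03 under median-of-ratios scaling, with 23 and 18 members above 0. Libraries of the compared subsets did not overlap at 9 members for mcDC against cDC1 (30.5% of all genes), at 4 for mcDC against cDC2 (21.6%) and at 12 for cDC1 against cDC2 (46.1%).

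Socs3, the feedback inhibitor of IL-6 and G-CSF receptor signalling, separated all 3 subsets. It was at 11.9, 7.39 and 18.5 RPKM in mcDC runs 1, 2 and 3, at 4.77, 2.83 and 5.07 in cDC1, and at 20.8, 26.9 and 30.1 in cDC2. The 3 sets of libraries did not overlap. Socs3 was higher in mcDC than in cDC1 by 1.33 ± 0.30 (log2, SE, limma adjusted p = 0.017, 0.077 without cDC1 replicate 2, 0.051 with these subsets fitted alone, and 0.0046 to 0.077 over the settings tried). It was lower in cDC1 than in cDC2 by -2.38 ± 0.30 (adjusted p = 4.7e-04). The difference between mcDC and cDC2 was -1.05 ± 0.30 (adjusted p = 0.10, or 0.033 when the run was blocked). Neutrophils and monocytes also express Socs3. Of the neutrophil markers, 7 of 11 were lower in mcDC than in cDC2 and 10 of 11 lower in cDC1 than in cDC2, and of 8 monocyte markers tested 4 and 7 were lower. The neutrophil markers summed to 40.9, 42.6 and 51.2 RPKM in mcDC runs 1, 2 and 3, to 15.0, 19.8 and 42.2 in cDC1. In cDC2 the sums were 197, 1015 and 1704 RPKM. The monocyte markers summed to 393, 476 and 522 RPKM in mcDC runs 1, 2 and 3, and to 222, 146 and 211 in cDC1. For cDC2 the monocyte sums were 954, 1615 and 2003 RPKM. The part of these cells in the Socs3 difference was not tested.

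A further 4 members were higher in cDC1 than in cDC2. Gadd45b, a stress sensor that activates p38, was at 110, 70.8 and 104 RPKM in mcDC, at 124, 144 and 136 in cDC1, and at 76.8, 45.7 and 51.3 in cDC2. The cDC1 and cDC2 libraries did not overlap (1.24 ± 0.22 log2, limma adjusted p = 0.0030). Dusp2, a nuclear phosphatase of ERK, was at 94.6, 66.7 and 62.2 RPKM in mcDC, at 102, 109 and 107 in cDC1, and at 72.3, 58.8 and 58.2 in cDC2 (cDC1 against cDC2, 0.75 ± 0.16, adjusted p = 0.010). Nr4a3, given above by run, was higher in cDC1 than in cDC2 by 1.42 ± 0.34 (adjusted p = 0.015). This call was lost, with an adjusted p of 0.053 and 0.066 without cDC1 replicates 2 and 3, and of 0.063 and 0.058 without cDC2 replicates 2 and 3, and it ranged from 9.1e-04 to 0.066 over the settings tried.

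Hsph1, the HSP110 exchange factor for HSP70, was the heat shock gene with the clearest subset pattern. It was at 13.3, 14.7 and 15.4 RPKM in mcDC, at 18.0, 21.3 and 17.8 in cDC1, and at 9.87, 10.7 and 8.57 in cDC2. From high to low the order was cDC1, mcDC and cDC2, with no overlap between libraries. cDC1 exceeded cDC2 by 0.90 ± 0.13 (log2, limma adjusted p = 0.0011). The neighbouring steps did not pass without the block, with -0.37 ± 0.13 for mcDC against cDC1 (adjusted p = 0.098, 0.072 with the block) and 0.53 ± 0.13 for mcDC against cDC2 (adjusted p = 0.066, 0.045 with the block). For Gadd45b, Dusp2, Hsph1 and Socs3 the difference between cDC1 and cDC2 kept its call in all 19 alternatives run.

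**Figure D4:**
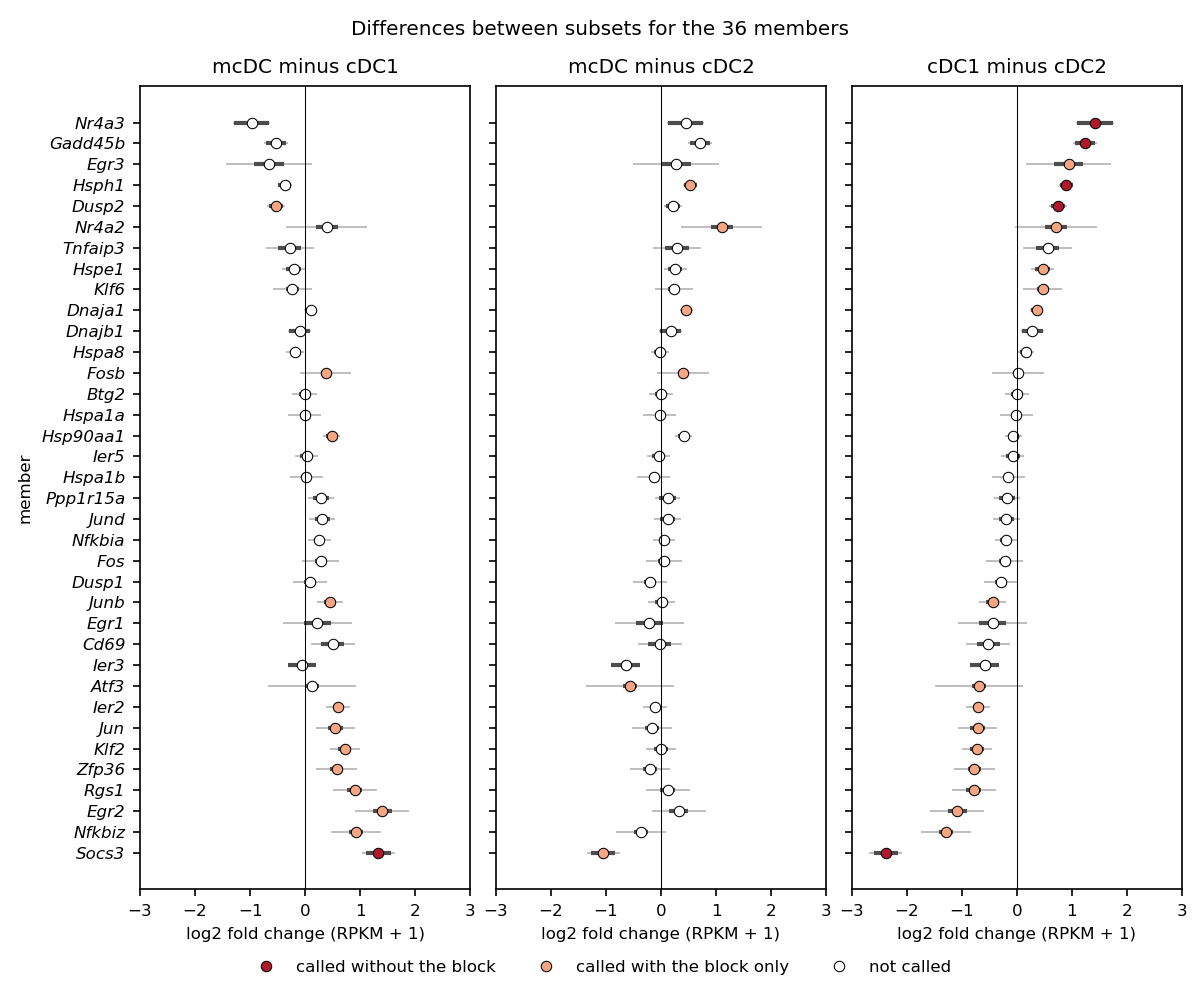
Log2 fold change of each member for mcDC minus cDC1, mcDC minus cDC2 and cDC1 minus cDC2, from log2(RPKM + 1). Thin grey bars are the SE without the title run and thick bars the SE with the title run as a block. Red points passed without the block, pale points passed with the block alone and white points did not pass. Socs3 lies lowest at -2.38 and Nr4a3 highest at 1.42 for cDC1 minus cDC2.

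Adjusted for the title run, the subsets differed at more members, which depends on treating the libraries of a run as alike. With the block, 11 members were higher and 1 lower in mcDC than in cDC1, against 13.1% and 7.59% of all genes. Beside Socs3 the higher members were Egr2 (1.40 ± 0.17 log2, adjusted p = 8.4e-04), Nfkbiz (0.92 ± 0.13), Rgs1 (0.90 ± 0.14), Klf2, Ier2, Zfp36, Jun, Hsp90aa1, Junb and Fosb, and the lower one was Dusp2 (-0.53 ± 0.13). Fosb was higher in mcDC than in cDC1 in 3 of 3 runs. Without mcDC replicate 1 and with no run term, which sets mcDC runs 2 and 3 against cDC1 runs 1, 2 and 3, the Fosb difference was -0.06. Of the macrophage markers, 10 of 11 were higher in mcDC than in cDC1, with sums of 442 to 850 RPKM in mcDC and 120 to 167 in cDC1, and no marker of the list was at 0. The part of those transcripts in the results was not tested.

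Between mcDC and cDC2, 4 members were higher and 2 lower with the block, against 3.86% and 2.60% of all genes. Nr4a2 (1.10 ± 0.20, adjusted p = 0.017), Hsph1, Dnaja1 (0.46 ± 0.10) and Fosb (0.40 ± 0.09) were higher in mcDC, and Socs3 and Atf3 (-0.56 ± 0.13, adjusted p = 0.045) were lower. Fosb was higher in mcDC in 3 of 3 runs, and Atf3 was higher in mcDC in 0 of 3. Without mcDC replicate 1 the Fosb difference was -0.04, and without cDC2 replicate 1 the Atf3 difference was 0.12, both in fits with no run term and with run 1 present in 1 of the 2 subsets. Macrophage markers were higher in mcDC at 9 of 11, with sums of 442 to 850 RPKM in mcDC and 195 to 232 in cDC2, and this was not tested for its part in these differences.

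Between cDC1 and cDC2, 9 members were higher and 10 lower with the block, against 11.3% and 13.2% of all genes. Egr3, Nr4a2, Klf6, Hspe1 and Dnaja1 joined Nr4a3, Gadd45b, Hsph1 and Dusp2 as higher in cDC1. The lower members beside Socs3 were Nfkbiz (-1.28 ± 0.13, adjusted p = 2.5e-04), Egr2 (-1.08 ± 0.17), Rgs1, Zfp36, Klf2, Jun, Ier2, Atf3 and Junb. In all 3 runs 29 of 36 members kept the same direction between cDC1 and cDC2, 12 higher and 17 lower, as did 65.5% of all genes tested (30.9% higher and 34.6% lower). The count was 19 for mcDC against cDC1 (47.7% of all genes) and 15 for mcDC against cDC2 (42.0% of all genes). The 3 comparisons share libraries.

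Other genes of these pathways, not among the members, were counted in the same fits. Of 47 further immediate early and feedback genes, 40 were tested. In mcDC 12 were higher and 0 lower than in cDC1, against 9.53% and 5.88% of all genes. The widest were the chemokine genes Ccl3 (2.88 ± 0.45 log2, limma adjusted p = 0.0024) and Ccl4 (2.16 ± 0.29), the zinc finger gene Klf4 (1.73 ± 0.37) and the SRF partner Elk3 (1.56 ± 0.28). Against cDC2, mcDC had 0 higher and 2 lower (2.06% and 1.60% of all genes), the ERK phosphatase gene Dusp6 (-1.15 ± 0.17) and the AP-1 gene Fosl2 (-0.98 ± 0.21). In cDC1, 2 were higher and 14 lower than in cDC2 (8.85% and 10.7% of all genes), among them Ccl3 (-2.74 ± 0.45), Klf4 (-2.00 ± 0.37), Il1b, which encodes interleukin-1 beta (-1.85 ± 0.26), and Fosl2 (-1.85 ± 0.21). Ccl3 and Il1b are also neutrophil and monocyte transcripts. In mcDC against cDC1, 2 of 11 neutrophil markers and 4 of 8 monocyte markers tested were higher. So were 3 of 7 natural killer (NK) cell markers tested and 10 of 11 macrophage markers, and 0 markers of these lists were lower. The part of any of those cells was not tested. The most abundant of the list were Rgs2, at a mean of 370 RPKM, and the orphan receptor gene Nr4a1, at 218 RPKM.

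Run 1 was highest within every subset at 20 of the 40 further immediate early genes tested and lowest at 3, together 23 against 25.0% of all genes. The F test called 2 of them, Nr4a1 (run 2 minus run 1, -1.25 log2, adjusted p = 0.019) and the NF-kB regulator Nfkbid (-1.29, adjusted p = 0.042). Of 50 further chaperone and stress genes, 48 were tested. Run 1 was lowest within every subset at 21 of them and highest at 3, together 24 against 25.0% of all genes, and the F test in limma called 0 of them, against 0.267% of all genes (17 at an unadjusted p under 0.05, against 21.3% of all genes). For mcDC against cDC1, 2 of the 48 were higher and 3 lower, against 9.53% and 5.88% of all genes, led by Dnajb4 (1.25 ± 0.27), the autophagy receptor gene Sqstm1 (-0.93 ± 0.13), Hsf2 (-0.90 ± 0.24) and Fkbp5 (0.79 ± 0.17). Against cDC2, mcDC was higher at 1 of 48 (2.06% of all genes), Hmox1 (1.94 ± 0.32), the haem oxygenase that also belongs to the macrophage markers. cDC1 exceeded cDC2 at 5 of 48 and fell below it at 0, against 8.85% and 10.7% of all genes, led by Hspb1 (1.18 ± 0.24, at a mean of 1.09 RPKM), Sqstm1 (1.08 ± 0.13) and the endoplasmic reticulum chaperones Hsp90b1 (1.01 ± 0.20) and Hspa5 (0.66 ± 0.15). The most abundant of this list were Hsp90ab1, at a mean of 712 RPKM, and Hspa5, at 339 RPKM.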

How the data were processed

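The authors deposited RPKM for 14862 genes in 1 table of 9 libraries and in 8 single-library files, which held the same values. Per the labels' protocols, a directional kit was used. The unit was read from the steps between values, which gave whole reads for 100% of nonzero values (tolerance 0.001). The submitters' processing notes name build mm8. The aligner, counting tool, use of strand and annotation are not given in the sources used here. There were 0 columns of other samples.

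Subsets and runs were compared in limma 3.58.1 (R 4.3.3) on log2(RPKM + 1), with a trend in the prior variance, in 1 fit of 9 libraries over 11971 genes above 1 RPKM in at least 2 libraries. Benjamini-Hochberg adjustment ran over all genes tested, with calls at 0.05. Fold changes on this scale understate changes of low genes. Of the 192 names in the companion and marker lists 185 were matched. Python 3.11.15 with numpy 2.4.6, pandas 2.3.3 and matplotlib 3.10.9 handled tables and figures.

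Deviations from subset means were correlated between libraries of different subsets. Over all genes tested the 9 same-run pairs ran from 0.098 to 0.46, and 9 of 9 libraries correlated best with their own run. The criterion for pairing, every pair above 0.1, was therefore not met. Over 7 gene sets tried, the lowest pair ran from 0.071 to 0.159 and was under 0.1 in 4, and these sets were compared after the calls of both fits had been seen. Over all genes tested the 18 pairs from different runs ran from -0.448 to 0.03, with a mean of -0.14 against 0.28 for same-run pairs. Libraries of a run were thus more alike than libraries of different runs. The criterion was still missed, so the runs are not taken to pair the libraries. The run was fitted as a term (the block) to give values adjusted for differences between runs.

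The members and lists were chosen with earlier results of these data known. Per-library values were given for members called between subsets (up to 8 with the largest change per comparison) or across runs (up to 8 with the smallest p), the 8 with the highest mean RPKM, and Hspa1a and Hspa1b. Of each further list and comparison, up to 4 called genes and the 2 most abundant were named, and further members are given by range.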

Additional observations from a re-analysis of the deposited data

Results flagged for a closer look

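Dusp2, Nr4a3 and Gadd45b were picked out because both later title runs lay below run 1 in some subsets and above it in another. The share of all genes tested that meet this rule is not given, so how unusual these genes are cannot be told. For Dusp2 runs 2 and 3 minus run 1 came to -0.55 in mcDC, 0.07 in cDC1 and -0.30 in cDC2, in log2(RPKM + 1). Its cDC1 levels were nearly flat, at 102, 109 and 107 RPKM in runs 1, 2 and 3. For Nr4a3 the values were -0.86 in mcDC, 0.40 in cDC1 and -0.57 in cDC2. For Gadd45b they were -0.35 in mcDC, 0.18 in cDC1 and -0.65 in cDC2. The difference between subsets was not tested for these genes. These 3 genes are also members that were higher in cDC1 than in cDC2, and both results rest on the same libraries.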

How the results depend on the processing

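The number of members called for mcDC against cDC1 was 1 as reported, 3 after quantile normalization, 3 with median-of-ratios scaling, 0 with these subsets fitted alone, and 0 to 4 leaving out each library in turn. For mcDC against cDC2 it was 0, and 0 to 4 leaving out each library. For cDC1 against cDC2 it was 5, 10 with these subsets fitted alone, and 4 to 9 leaving out each library. With the title run as a replicate block the 3 counts were 12, 6 and 19, and with the block and without mcDC replicate 3 they were 13, 4 and 22. Without mcDC replicate 1 the 3 counts were 4, 4 and 9, without mcDC replicate 3 they were 2, 1 and 8, and without cDC1 replicate 2 the first was 0. Across title runs the count was 11 as reported, 2 with no filter, 1 with no trend in the prior variance, and 2 to 14 leaving out each library.

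Leaving out each library, the Fosb difference ran from -0.06 to 0.77 for mcDC against cDC1 and from -0.04 to 0.79 for mcDC against cDC2, both lowest without mcDC replicate 1. The Atf3 difference for mcDC against cDC2 ran from -1.36 to 0.12, highest without cDC2 replicate 1. These fits have no run term and keep run 1 in 1 of the 2 subsets compared, so the subsets differ in their mix of runs. Within runs Fosb was higher in mcDC in 3 of 3 in both comparisons, and Atf3 was higher in mcDC than in cDC2 in 0 of 3. Over single-gene values, 703 kept direction and side of the threshold, 92 fell short of it and 81 newly passed it. A pseudocount of 0.1, a filter of 5 RPKM and voom were also run and moved none of the 4 counts by more than 1.5 times. mcDC libraries were the shallowest, at 5.14 to 8.22 M reads, which limits Cd69 most, with 23 reads in mcDC replicate 2.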
